A study of Mus musculus with 2 samples.

Results

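The genes described here encode 10 transcription factors and cofactors that act together on DNA in blood stem and progenitor cells: Gata1, Gata2, Zfpm1, Tal1, Lyl1, Lmo2, Ldb1, Fli1, Erg and Runx1. They were taken as every probe set whose platform annotation gives a single gene symbol, current or former, that is one of these names. A probe set is a group of short array probes that together read 1 transcript. The rule found 19 probe sets for all 10 genes, out of 18193 genes on the array. No probe set was matched by a former name, and none of the probe sets annotated to several genes listed a member.

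RNA came from LSK Flt3- cells, a bone marrow fraction without lineage markers or the Flt3 receptor, with Sca-1 and a high level of c-Kit, which is rich in stem cells. The cells were from wild-type C57BL6J mice. One group was transduced with GFP, the green fluorescent protein that serves as the control, and the other with Satb1, whose product is a chromatin organiser of the nucleus with a preference for AT-rich DNA. Each group had 1 array, called GFP and Satb1 below, so no difference below has a replicate check, an error between samples or a p-value. The sources used here do not give the vector, the number of animals behind each array or whether cells were pooled.

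These proteins work as assemblies. GATA1 and GATA2 are zinc finger proteins that bind GATA letters, and TAL1 and LYL1 are basic helix-loop-helix (bHLH) proteins that pair with E proteins on E-boxes. LMO2 and LDB1 do not bind DNA themselves and bridge the GATA and bHLH proteins, while FLI1, ERG and RUNX1 bind ETS and RUNX letters close by. In stem cells, GATA2, TAL1, LYL1, LMO2, FLI1, ERG and RUNX1 share many regulatory elements, and in erythroid and megakaryocytic cells GATA1 with its cofactor FOG1, the product of Zfpm1, takes over many GATA2 sites.

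The promoters of the genes with the largest differences between the arrays, by the brightest probe set of each gene, are shown first. Members of this group are known to bind each other's regulatory DNA. By that probe set, Runx1 and Gata1 were higher on the array labelled Satb1, and Lyl1 and Erg lower. Of the 6 Runx1 probe sets, 3 were higher and 3 lower. Each window holds 250 bases before and 50 bases after a RefSeq transcription start in the mouse assembly GRCm38.p6, printed 5′ to 3′ on the gene's strand. Capitals mark matches, on either strand, to the GATA letters AGATAA or TGATAA, to the E-box CANNTG and to the RUNX letters TGTGGT. The ETS letters GGAA are too common to mark. Of the 3 Erg windows, the one shown is the only one with such a match.
Runx1, distal start, chr16:92826025-92826324, minus strand: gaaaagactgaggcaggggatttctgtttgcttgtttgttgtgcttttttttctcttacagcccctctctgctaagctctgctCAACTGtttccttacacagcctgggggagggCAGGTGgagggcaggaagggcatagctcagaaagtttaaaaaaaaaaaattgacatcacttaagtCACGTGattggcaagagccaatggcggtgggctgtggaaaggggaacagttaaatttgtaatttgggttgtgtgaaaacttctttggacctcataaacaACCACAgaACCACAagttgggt
Runx1, proximal start, chr16:92697280-92697579, minus strand: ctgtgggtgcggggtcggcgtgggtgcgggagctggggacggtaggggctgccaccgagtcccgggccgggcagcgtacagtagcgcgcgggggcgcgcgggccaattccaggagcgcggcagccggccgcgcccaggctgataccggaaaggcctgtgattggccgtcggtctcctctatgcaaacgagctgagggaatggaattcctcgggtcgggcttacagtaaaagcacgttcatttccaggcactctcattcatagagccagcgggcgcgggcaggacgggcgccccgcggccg
Gata1, chrX:7967861-7968160, minus strand: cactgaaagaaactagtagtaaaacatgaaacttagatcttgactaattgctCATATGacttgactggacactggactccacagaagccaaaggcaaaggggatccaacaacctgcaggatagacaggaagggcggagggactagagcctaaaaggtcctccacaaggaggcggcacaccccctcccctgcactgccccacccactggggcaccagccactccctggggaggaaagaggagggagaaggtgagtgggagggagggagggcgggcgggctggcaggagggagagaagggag
Lyl1, chr8:84701207-84701506, plus strand: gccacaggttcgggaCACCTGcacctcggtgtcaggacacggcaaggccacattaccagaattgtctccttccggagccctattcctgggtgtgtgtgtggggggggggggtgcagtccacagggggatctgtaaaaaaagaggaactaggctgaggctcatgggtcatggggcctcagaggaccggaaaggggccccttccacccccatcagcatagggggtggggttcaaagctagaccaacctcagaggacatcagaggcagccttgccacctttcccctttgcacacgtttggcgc
Erg, most downstream start, chr16:95459299-95459598, minus strand: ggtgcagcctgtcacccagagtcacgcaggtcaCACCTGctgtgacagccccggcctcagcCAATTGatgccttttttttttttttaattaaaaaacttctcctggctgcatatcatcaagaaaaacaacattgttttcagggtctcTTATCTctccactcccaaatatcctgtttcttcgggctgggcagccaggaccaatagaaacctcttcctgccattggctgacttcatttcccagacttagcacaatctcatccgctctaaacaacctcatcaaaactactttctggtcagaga

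The Runx1 windows differ in composition and in the letters they hold. The distal window had 45.0% G and C, 3 E-boxes and 2 RUNX matches, both of them after the start. The proximal window had 69.0% G and C, no E-box and no RUNX match. RUNX letters occurred in 16.8% of all 32851 promoter windows in the table, and among the 15 windows of the members in 1, the distal Runx1 window. GATA letters occurred in 3 of the 15 windows, against 18.6% of all windows, in Erg (the window shown), Tal1 (1 match) and Ldb1 (2 matches). E-boxes occurred in 7 of the 15, against 72.3% of all, and GGAA in all 15, against 96.0%. A match describes these letters and is not a binding site. The table held windows for 8 of the 10 genes.

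Values are MAS5 intensities, the single linear intensity that the Affymetrix algorithm gives each probe set. A floor of 61.7, the pooled median intensity, replaced lower values before the log2 difference (Satb1 minus GFP) was taken. By its brightest probe set, every one of the 10 genes was above the floor on both arrays, and 18 of the 19 probe sets were. Over the whole array, 10316 of 18193 genes and 18506 of 34945 probe sets with a single symbol were. Intensities of different probe sets depend on the probes and are not compared between genes. How far probe sets of 1 gene disagree is the only estimate of error these arrays give. It may include real differences between the transcripts that the probe sets read, so it is not purely technical. It was taken from genes with several probe sets in the same intensity range, above the floor on both arrays. Its SD on the log2 difference was 0.13 at mean intensities over 2000 and 0.19 from 500 to 2000. At lower intensities it was 0.28 from 200 to 500 and 0.36 under 200. This within-gene SD leaves out disagreement between a bright and a dim probe set of 1 gene in different ranges. It also leaves out whatever shifts a whole gene, so it is not the error of a difference between cultures.

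**Figure D1:**
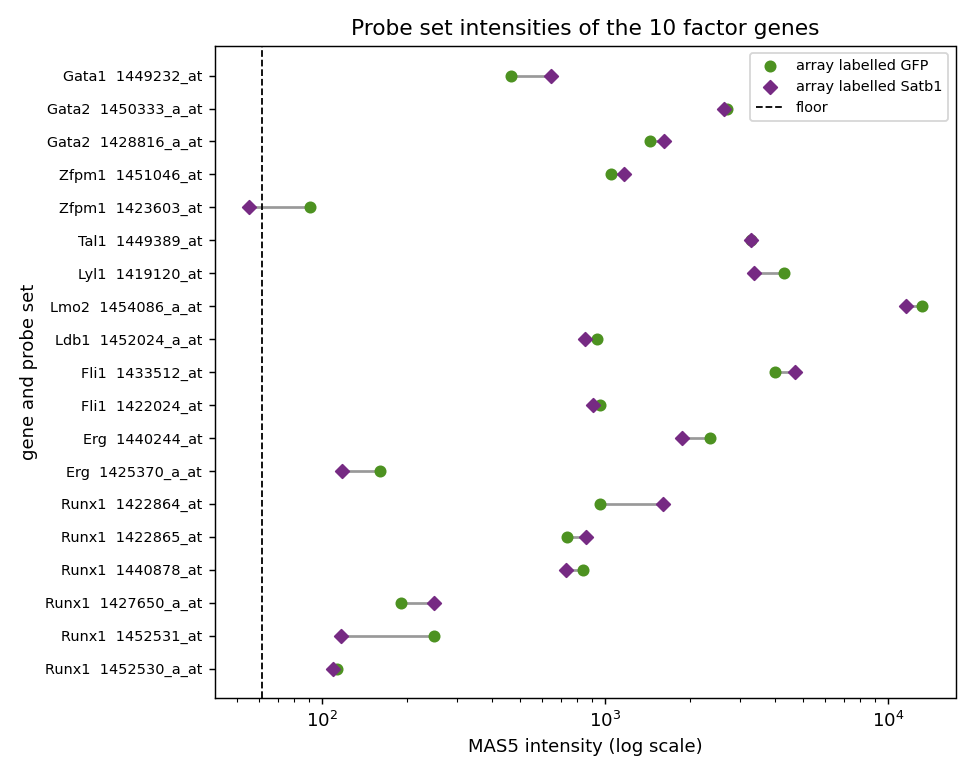
MAS5 intensity (log axis) of the 19 probe sets of the 10 genes for GFP (circles) and Satb1 (diamonds), with the floor of 61.7 as a dashed line. The pairs of points lie close together for most probe sets, and the widest gaps are those of the Runx1 probe sets 1452531_at (249 and 117) and 1422864_at (960 and 1611).

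No member differed by 2-fold between the arrays by its brightest probe set. Of all 11048 genes above the floor on at least 1 array, 1.13% were at least 2-fold apart, so that a list of 10 without such a gene is near the background. At 1.5-fold, 1 of the 10 genes, Runx1, was higher and 0 were lower, against 1.75% of all genes higher and 3.91% lower. By any amount, 5 genes were higher and 5 lower (4 and 6 after quantile normalization, 6 and 4 after median scaling), against 45.2% of all genes higher and 54.8% lower. The median log2 difference was -0.017 over the members and -0.021 over the 10316 genes above the floor on both arrays.

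Single members did spread around that median. By the brightest probe sets, differences ran from -0.36 for Lyl1 to 0.75 for Runx1. The median absolute log2 difference was 0.21 over the members, against 0.14 over all genes above the floor on both arrays and 0.11 over the 6609 genes with a mean intensity over 500. All members had a mean intensity over 500 by their brightest probe set, and among all genes that bright, 1.68% were at least 1.5-fold apart. In 6 of the 10 genes (Gata1, Lyl1, Lmo2, Fli1, Erg and Runx1) the difference was larger than 1 within-gene SD at its intensity, as it was in 33.5% of all genes above the floor on both arrays.

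**Figure D2:**
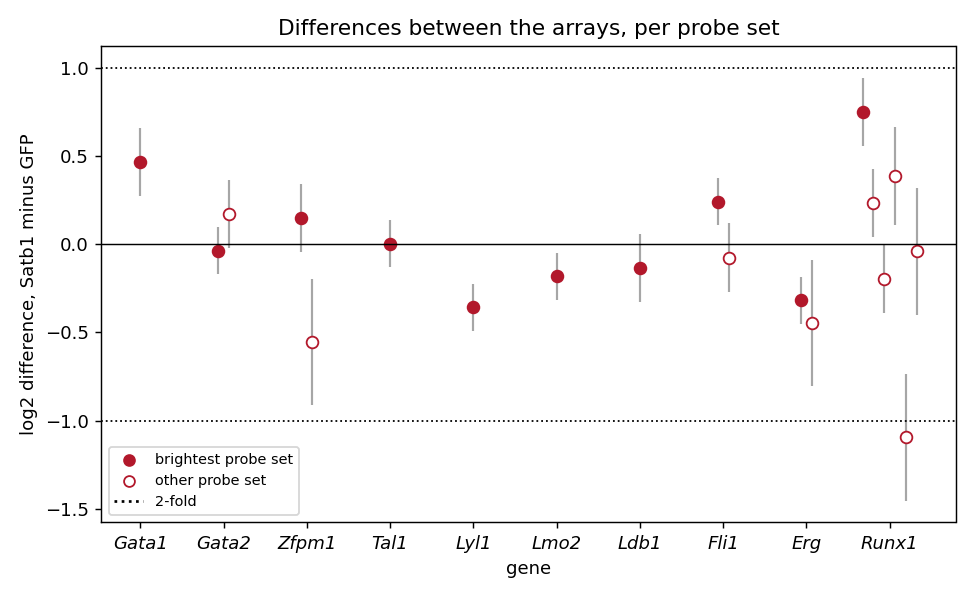
Log2 difference (Satb1 minus GFP) of each probe set of the 10 genes. Filled points are the brightest probe set of a gene, open points its others, grey bars 1 within-gene SD at that intensity on either side, and dotted lines 2-fold. Every probe set of Gata1, Lyl1, Lmo2 and Erg lies to one side of 0 by more than its bar. The 6 Runx1 probe sets run from -1.10 to 0.75.

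Among the GATA factors and their cofactor, Gata1 was higher and Gata2 and Zfpm1 were close to equal. Gata1, the GATA factor of erythroid cells, megakaryocytes, mast cells and eosinophils, read 466 on GFP and 644 on Satb1. This is a 1.38-fold difference (log2 0.47) by its only probe set, with 0.19 as the within-gene SD at that intensity. Gata2, which maintains stem cells and early progenitors, has 2 probe sets. Its brighter one read 2698 on GFP and 2629 on Satb1, a log2 difference of -0.037, and the other 1440 and 1619, a log2 difference of 0.17. They disagreed in sign and were both small, so Gata2 has no settled direction. Zfpm1, which encodes the GATA cofactor FOG1, read 1052 and 1165 by its brighter probe set (log2 0.15). Its dim probe set, designed from the same sequence record, read 90.6 and 55.1, the second under the floor, which makes it at least 1.47-fold lower. Gata1 was thus the only gene of these 3 whose difference exceeded the within-gene SD by its brightest probe set, and it has no second probe set to set beside it.

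The related bHLH genes gave unlike values. Tal1, a factor needed to form all blood lineages and later for red cells and megakaryocytes, read 3280 and 3287, a log2 difference of 0.0029. Lyl1, its close relative with overlapping roles in adult stem cells, read 4306 and 3358. Lyl1 was 1.28-fold lower on the array labelled Satb1 (log2 -0.36), the lowest difference of any member by its brightest probe set, against a within-gene SD of 0.13. Each gene has 1 probe set.

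The bridging genes were slightly lower. Lmo2, the LIM-only protein that joins TAL1 to GATA proteins, read 13191 and 11627, a log2 difference of -0.18. Ldb1, which dimerises and so brings distant elements together, read 940 and 855, a log2 difference of -0.14. The Ldb1 difference was within 1 within-gene SD (0.19) and that of Lmo2 outside it (0.13). Both have 1 probe set, of the kind that reads several transcripts of the gene.

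The ETS genes went different ways. Fli1, an ETS factor of stem cells and megakaryocytes, read 3993 and 4713 by its brighter probe set, a 1.18-fold higher value (log2 0.24). Its other probe set read 959 and 909 (log2 -0.077), so that the direction of Fli1 depends on the probe set. Erg, an ETS factor required for stem cell maintenance, was lower by both of its probe sets. The brighter read 2346 and 1881, a 1.25-fold lower value on the array labelled Satb1 (log2 -0.32). The dimmer read 160 and 118 (log2 -0.45). Erg was the only one of the 5 genes with several probe sets whose differences all had the same sign. Over all 5262 genes with several probe sets above the floor, 53.2% had differences of both signs, so a split such as that of Gata2, Zfpm1, Fli1 and Runx1 was common on these arrays.

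Runx1, the Runt domain factor that is needed to form the first blood stem cells and that binds DNA with CBF-beta, had the largest difference of the members and the widest disagreement. It is read by 6 probe sets. The brightest, 1422864_at, read 960 on GFP and 1611 on Satb1, a 1.68-fold higher value (log2 0.75). A second one designed from the same record, 1422865_at, read 732 and 860 (log2 0.23), and 1427650_a_at read 191 and 249 (log2 0.38). These 3 were higher on the array labelled Satb1, each by more than 1 within-gene SD.

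The other 3 Runx1 probe sets were lower, 1440878_at and 1452531_at by more than 1 within-gene SD and 1452530_a_at by less. Probe set 1440878_at read 838 and 732 (log2 -0.20), just past its within-gene SD of 0.19. Probe set 1452531_at read 249 and 117, a 2.14-fold lower value (log2 -1.10), the only probe set of the 19 that was 2-fold apart, against 1.18% of all 20173 probe sets above the floor. The sixth, 1452530_a_at, was designed from the same record as 1452531_at but read 113 and 110 (log2 -0.041). The mean over all 6 differences was 0.0050 with an SD of 0.63. Of the 158 genes with 6 or more probe sets above the floor, 3 (1.90%), Runx1 included, had a range of differences as wide as its 1.84, a comparison chosen after the values were seen. Runx1 RNA as a whole therefore has no settled direction here, and the values belong to the probe sets named. Which part of the Runx1 transcripts each probe set reads, and so whether any of them separates RNA from the distal and the proximal start shown above, was not tested.

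**Figure D3:**
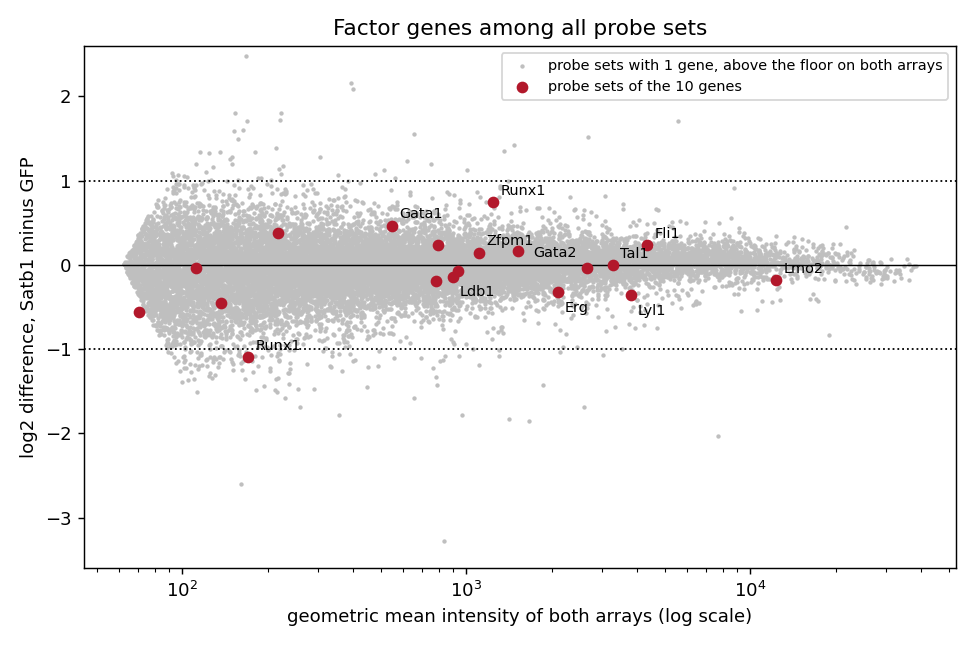
Log2 difference (Satb1 minus GFP) against the geometric mean intensity of both arrays (log axis) for the 18506 probe sets of single genes that passed the floor on each array (grey), with the 19 probe sets of the 10 genes in red and 2-fold as dotted lines. Most red points lie inside the grey cloud. The brightest Runx1 probe set (0.75) sits at its upper edge and another Runx1 probe set (-1.10) just past the lower dotted line. The dimmest red point, a Zfpm1 probe set under the floor on Satb1, is drawn with its floored difference.

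Related genes were then described in lists, by the brightest probe set of each gene. Cofactors that join these factors were measured for all 16 genes listed, all above the floor. On the array labelled Satb1, 6 read higher and 10 lower (8 and 8 after median scaling), 0 were 2-fold apart, and the median log2 difference was -0.042. Cbfb, whose product CBF-beta pairs with RUNX1, read 8048 and 7473. The E protein gene Tcf4 read 4040 and 3626 by its brightest probe set, and those above the floor ran from -0.19 to 0.15 on the log2 scale. Tcf12, another E protein gene, read 3990 and 4413, but its probe sets above the floor ran from -0.84 to 0.29. Chd4, the helicase of the NuRD repressor complex that FOG1 recruits, had the largest difference of the list, at 2243 and 1792 (log2 -0.32), but its 3 probe sets ran from -0.32 to 0.35. Ssbp3, an LDB1-stabilising protein gene, read 683 and 607. The deacetylase genes Hdac1 (4596 and 4687) and Hdac2 (5318 and 5800) were bright and differed little.

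Close relatives of the members were mostly not above the floor. Of 13 measured genes, 8 lay under it on both arrays: Gata3, Gata4, Gata5, Gata6, Tal2, Lmo3, Ldb2 and Zfpm2. Of all 18193 genes, 11048 passed it on at least 1 array. Runx3 (3242 and 3173), Lmo4 (1972 and 2368), Ets2 (431 and 447) and Lmo1 (412 and 429) were within 2-fold. Ets1, the founding ETS factor of lymphoid cells, read 208 and 130 (log2 -0.68), and its other probe set above the floor was 2-fold lower (log2 -1.02). Among the GATA genes measured by a probe set with a single symbol, therefore, only Gata1 and Gata2 were above the floor.

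Other transcription factors of blood progenitors were also within 2-fold, with 6 of 13 higher by some amount, 7 lower (8 and 5 after median scaling) and a median of -0.0078. Klf1, the erythroid factor that works downstream of GATA1, read 87.1 and 138 (log2 0.67). Gfi1, a repressor of granulocyte progenitors and stem cells, read 367 and 272 (log2 -0.43), Cebpa 1989 and 1689, and Mef2c 2633 and 2233 (log2 -0.24), although the 5 Mef2c probe sets ran from -0.24 to 0.48. By their brightest probe sets, Myb read 14846 and 13744, Nfe2 5931 and 5754 and Elf1 5404 and 5791. Another Myb probe set was at -0.43 and the other Elf1 probe set at -0.58 on the log2 scale, while Nfe2 has 1 probe set.

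Lists of genes that GATA1, TAL1 and their partners are known to switch on in red cells and megakaryocytes held members on both sides of 0. More of them were higher than lower, and none was 2-fold apart without further normalization. In the erythroid list, 11 of 19 measured genes passed the floor, of which 8 were higher and 3 lower by some amount (45.2% of all genes were higher), 0 were 2-fold apart, and the median log2 difference was 0.23. With no floor, that median over all 19 was 0.11. In the megakaryocyte list, 15 of 18 genes were higher and 3 lower, 0 were 2-fold apart, and the median was 0.17. Quantile normalization and median scaling each gave 16 higher and 2 lower there. In the erythroid list, quantile normalization gave 10 higher, 1 of them by 2-fold, and 1 lower. For the same list, median scaling gave 9 and 2. Without probe sets of the kinds that may match other genes, it held 7 higher and 4 lower. The late erythroid genes Alas2 (1.6 and 1.3), Hba-a1 (6.6 and 3.8) and Slc4a1 (21.4 and 19.6), of haem synthesis, globin and the red cell anion exchanger, were under the floor on both arrays. The carbonic anhydrase gene Car2 read 9486 and 11142, the transferrin receptor gene Tfrc 4523 and 5408, and the haem synthesis genes Urod 3651 and 3931 and Cpox 369 and 453. Tspan33 read 264 and 502 by its brightest probe set (log2 0.93), with its 4 probe sets from -0.51 to 0.93. Tfr2, the second transferrin receptor gene, read 1445 and 941 (log2 -0.62), while its other probe set was at -0.045.

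In the megakaryocyte list, the largest differences were those of the chemokine gene Ppbp (1753 and 3075, log2 0.81), the P-selectin gene Selp (909 and 1528, log2 0.75) and Gp1bb (292 and 489, log2 0.74), whose other probe set went the other way (log2 -0.19). Clec1b, the podoplanin receptor gene, read 129 and 88.7 (log2 -0.53). The bright genes Pf4 (19179 and 21045), Cd9 (6699 and 7544) and Plek (6355 and 7190) differed by less. In these bulk RNA samples, more cells of a type and more RNA per cell cannot be told apart.

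Mast cell and basophil genes, many of which depend on GATA2 or GATA1, were listed as well. Of 9 genes above the floor, 7 were lower (54.8% of all genes were lower) and 2 higher, and the median log2 difference was -0.75, or -0.47 over all 11 measured genes with no floor. At least 2-fold apart were 3 lower genes and 1 higher gene, against 1.13% of all genes in either direction. Fcer1a, the IgE receptor alpha chain gene, read 397 and 65.4 (log2 -2.60), the protease gene Mcpt8 4653 and 1449 (log2 -1.68), and Ms4a2, the receptor's beta chain gene, 1227 and 560 (log2 -1.13). Hpgds, the prostaglandin D synthase gene, read 72.5 and 184 (log2 1.34). Cpa3 read 7418 and 5347, and Kit 3293 and 3388, with another Kit probe set at -0.42 on the log2 scale. Beside these values, Gata2 had log2 differences of -0.037 and 0.17 and Gata1 of 0.47. A link between the RNA of either factor and the mast cell and basophil genes was not tested. Fewer such cells and less RNA per cell cannot be told apart here either.

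**Figure D4:**
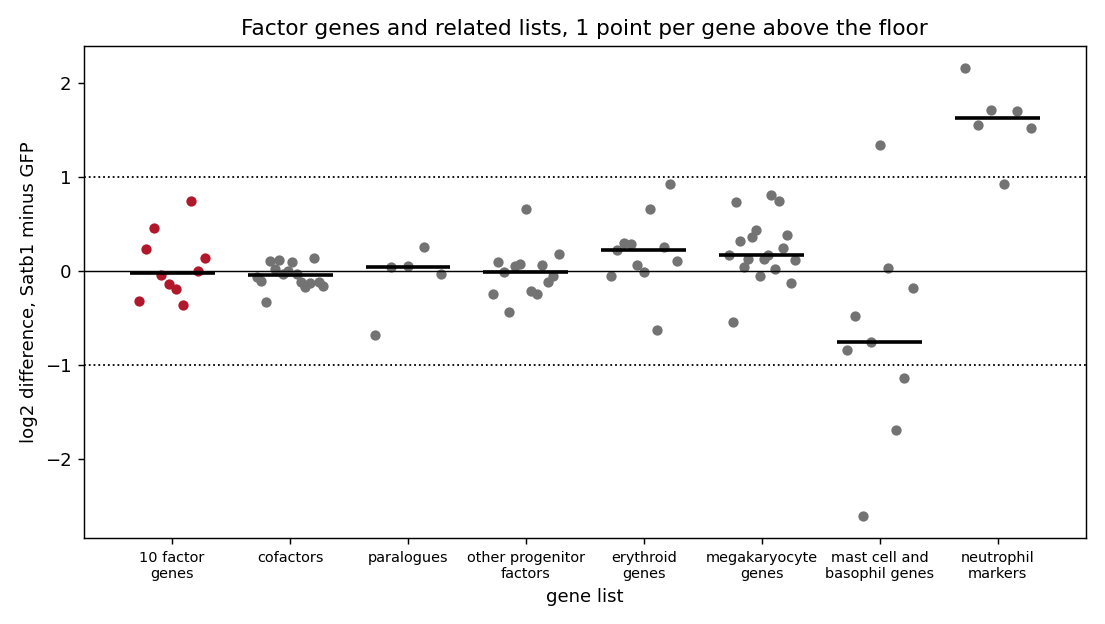
Log2 difference (Satb1 minus GFP) of each gene above the floor, by its brightest probe set, for the 10 factor genes (red) and 7 related lists (grey), with the median of each list as a black bar and 2-fold as dotted lines. The factor genes, their cofactors and other progenitor factors centre near 0 (medians -0.017, -0.042 and -0.0078), while the mast cell and basophil genes centre at -0.75 and the neutrophil markers at 1.63.

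The samples were also checked against markers of other cells. All 6 neutrophil markers listed were higher on the array labelled Satb1, where 45.2% of all genes were higher. Of these markers, 5 were at least 2-fold higher, against 1.13% of all genes 2-fold apart in either direction. Their summed intensity was 6281 on GFP and 18722 on Satb1. The part of neutrophil precursors in the differences of Gata1, Runx1 and the lineage lists was not tested. Of the T cell markers, 4 of 5 were under the floor on both arrays, as were 3 of 4 measured B cell markers, 2 of 4 macrophage markers and 4 of 7 endothelial and stromal markers, with summed intensities of 194 and 206, 465 and 423, 4298 and 3785, and 487 and 486. The defining genes Cd3e (40.7 and 7.8), Pax5 (9.7 and 33.2), C1qa (1.8 and 1.6) and Cdh5 (38.8 and 11.4) were among those under the floor. Of all 18193 genes, 11048 passed the floor on at least 1 array. Counts such as 2 of 4 or 4 of 7 under it therefore do not show that a cell type was absent. Above the floor on both arrays were Cd8a (88.9 and 148) of the T cell list and Cd79b (412 and 352) of the B cell list. So were Csf1r (4099 and 3549) and Adgre1 (170 and 193) of the macrophage list and Tek (302 and 307) of the endothelial and stromal list. Whether the sorted cells or other cells gave these values was not tested. Cd8a passed the floor by only 1 of its 5 probe sets, of a kind that may match other genes. Kdr (20.0 and 107) and Col1a2 (79.1 and 14.0) passed it on 1 array. Of the LSK markers, Kit, Cd34 (8563 and 8197) and Procr (133 and 125) were present, and so was Flt3 RNA (1390 and 1334), although the cells were sorted as negative for the Flt3 receptor. Slamf1, the CD150 gene, read 95.7 and 233. The transduced gene did not check the labels: the brightest Satb1 probe set read 1116 on GFP and 909 on Satb1, and the 3 Satb1 probe sets that passed the floor on each array ran from -0.81 to -0.09 on the log2 scale. All directions therefore rest on the labels.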

How the data were processed

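Expression was measured on 1 Affymetrix array per group, from cells transduced with GFP or with Satb1. The intensity values are those the authors deposited, made with MAS5 per the submitters' processing notes. Its version and scaling target are not stated there. After trimming 2% at either end, the mean intensity was 497 for GFP and for Satb1. Arrays have no read depth, and precision is limited by their number.

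Of 45037 probe sets, 34945 had 1 gene symbol, 932 several and 9160 none. Symbols were updated by gene ID against GRCm38.p6, which matched 34741. No further normalization was applied. Intensities were floored at 61.7 and compared on the log2 scale, and the brightest probe set (by mean log2 intensity) stood for each gene. With 1 array per group, no test was run. Promoter windows came from RefSeq. The genes named are all members, the 4 genes of each related list with the largest difference and the 3 with the highest GFP intensity, and, chosen after their values were seen, the genes under the floor and 4 defining markers. Cell type marker lists are given mainly by their counts and summed intensities. The members and lists were chosen with earlier results of these data known. Alternatives covered the floor (25th or 75th percentile, or none), scaling, the choice of probe set and a 1.5-fold threshold. Calculations used Python 3.11.15, numpy 2.4.6 and pandas 2.3.3, tested on simulated data.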

Additional observations from a re-analysis of the deposited data

How the results depend on the processing

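No paired analysis was possible because each group had 1 array, and no replicate could be left out. Under the 7 alternatives of floor, scaling and probe set, Gata1 stayed higher (0.47 to 0.52) and Lyl1 (-0.40 to -0.31), Lmo2 (-0.22 to -0.13), Ldb1 (-0.14 to -0.09) and Erg (-0.38 to -0.27) lower. Gata1, Tal1, Lyl1, Lmo2 and Ldb1 have 1 probe set each, which passed every floor. Only quantile normalization and median scaling could move these genes, and the other alternatives had to return the same value. For Erg, the mean over probe sets could move the value as well. Tal1 turned negative after quantile normalization (-0.03) and Gata2 positive after median scaling or with the mean over probe sets. With the mean over probe sets, Zfpm1 was -0.20, Fli1 0.081 and Runx1 0.0050, because each combines probe sets of opposite sign. The median over the members ran from -0.07 to 0.03. At 1.5-fold, 1 member was counted in place of 0. Over all genes, 125 were 2-fold apart (30 higher, 95 lower). A floor at the 25th percentile gave 1227 (440 and 787), one at the 75th gave 23 (5 and 18), no floor gave 3457 (1478 and 1979) and the mean over probe sets gave 75 (18 and 57). At 1.5-fold they were 625 (193 and 432). After quantile normalization 54 were higher and 61 lower, and the cause was not tested.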
